A study of Mus musculus with 16 samples.

Results

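The genes described here are 9 mouse genes of meiotic recombination, Prdm9, Spo11, Mei1, Mei4, Dmc1, Tex15, Hfm1, Msh4 and Msh5. They were taken by symbol, so no measured value entered the choice, and all 9 were found among the 26219 genes of each of the 2 expression tables. The series asks what PRDM1, also called BLIMP1, a transcriptional repressor, does in primordial germ cells (PGCs), from which eggs and sperm descend. RNA of sorted PGCs was read by 3′ RNA sequencing, in which reads come from the ends of transcripts, in 16 libraries.

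The floxed set held 8 libraries of C57BL/6 background, all at E11.5 (embryonic day). The 4 control libraries were Prdm1(flox/flox); Rosa26(neo-EYFP/+), and the 4 CKO (conditional knockout) libraries carried in addition Dppa3-MCMP(Tg/0), a Cre transgene driven by the germ cell gene Dppa3 and switched on by tamoxifen. Mothers of both groups received 3 mg 4-hydroxytamoxifen (4-OHT) per 25 g body weight at 10.5 days. These cells were sorted by EYFP or with an antibody to SSEA-1, and the labels tie neither sort to a group. If the sort differed between the groups, its effect cannot be told apart from that of the transgene. The wild-type set held 8 libraries carrying Dppa3(EGFP/+) on a mixed ICR and C57BL/6 background, with 2 libraries each at E10.5, E11.5, E13.5 male and E13.5 female. Nothing in the labels ties a replicate to its own embryo or litter, and p-values therefore cover the spread between libraries, which may be technical.

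Meiotic recombination starts with programmed DNA breaks and ends with crossovers that hold homologous chromosomes together until they separate. PRDM9 marks the chromatin sites where breaks form, SPO11 cuts the DNA, and MEI1 and MEI4 are needed for the cutting. DMC1 then pairs the broken end with the homologous chromosome, TEX15 is needed in mouse spermatocytes for DMC1 to load, and HFM1, MSH4 and MSH5 act on the joined intermediates that become crossovers. Female mouse germ cells enter meiosis in the fetal ovary, whereas male germ cells stop dividing in the fetal testis and enter meiosis only after birth.

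On GRCm38.p6 the break-forming genes lie at chr17:15543072-15564374 (Prdm9), chr2:172977379-172993576 (Spo11), chr15:82070074-82126817 (Mei1) and chr9:81863670-82206007 (Mei4). Dmc1 lies at chr15:79561497-79605159 and Tex15 at chr8:33516689-33592503. The crossover genes lie at chr5:106840193-106926712 (Hfm1), chr3:153857141-153906138 (Msh4) and chr17:35028605-35046997 (Msh5). In the last 1000 bases of each of the 9, where 3′ reads come from, the GENCODE annotation of GRCm38 places no other gene.

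RefSeq promoters, each 250 bases before to 50 bases after a start site on GRCm38.p6, were found for 7 of the 9 genes, as 8 sequences. The 3 below belong to genes that were higher in female cells at E13.5, and they span the range of CpG content of the windows found. Capitals mark each CG dinucleotide, and all 3 are read on the minus strand, from chr15:79605060-79605359 (Dmc1), chr5:106925841-106926140 (Hfm1) and chr3:153904842-153905141 (Msh4).
Dmc1: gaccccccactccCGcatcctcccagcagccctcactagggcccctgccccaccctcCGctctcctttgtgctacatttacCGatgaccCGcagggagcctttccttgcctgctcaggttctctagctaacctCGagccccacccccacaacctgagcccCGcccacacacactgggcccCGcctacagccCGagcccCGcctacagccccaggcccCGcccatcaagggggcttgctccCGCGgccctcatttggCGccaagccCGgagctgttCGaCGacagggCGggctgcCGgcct
Hfm1: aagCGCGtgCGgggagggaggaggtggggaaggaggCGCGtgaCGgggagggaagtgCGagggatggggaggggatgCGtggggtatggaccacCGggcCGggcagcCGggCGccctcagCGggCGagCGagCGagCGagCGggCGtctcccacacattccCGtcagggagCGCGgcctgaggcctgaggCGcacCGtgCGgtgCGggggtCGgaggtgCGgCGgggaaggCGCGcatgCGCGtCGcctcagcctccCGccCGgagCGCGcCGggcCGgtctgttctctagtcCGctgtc
Msh4: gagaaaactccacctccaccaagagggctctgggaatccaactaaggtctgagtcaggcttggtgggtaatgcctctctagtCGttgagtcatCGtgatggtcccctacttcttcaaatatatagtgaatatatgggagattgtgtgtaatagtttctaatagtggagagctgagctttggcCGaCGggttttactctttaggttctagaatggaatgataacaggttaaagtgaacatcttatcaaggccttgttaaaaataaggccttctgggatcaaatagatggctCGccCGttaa

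The Hfm1 promoter held 41 CG dinucleotides, the Dmc1 promoter 18 and the Msh4 promoter 6, against a median of 7 over all 32851 promoters in the table. The other promoters held 27 (Msh5), 16 (Mei4), 8 (Mei1), and 9 and 18 for the pair of Prdm9 starts. The windows of Hfm1, Msh4, Mei1, Msh5 and the Prdm9 start with 9 lay wholly within the gene spans given above. Their counts describe starts inside the genes and not the outermost start. The E-box CACGTG, the same on both strands, was in 0 of the 8 sequences and in 7.15% of all promoters. The E2F motif GCGGGAA or its complement TTCCCGC was in 2 of the 8, at Msh5 and at 1 Prdm9 start, and in 4.600% of all promoters. Such a match is a description of letters and does not show that a factor binds.

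Values are in RPM, a read count scaled to a common total per library by the authors and not divided by gene length, so levels are compared across samples within a gene and not between genes. Judged from the spacing of low values, a library held about 1485000 to 5032000 reads, and 3 reads, used as the floor, corresponded to 0.596 to 2.02 RPM. The highest floor was that of E11.5 replicate 1. Floors account for counting error alone, because amplified copies of a molecule are counted too. Germ cell markers were detected in every group, with a summed level of 2964 to 9366 RPM per library. Gonadal somatic markers summed to 2.28 to 46.1 RPM in wild-type libraries, and to 11.48 to 56.7 RPM in control and 7.46 to 172 RPM in CKO-labelled libraries. In bulk samples, fewer cells of a type and less RNA per cell cannot be told apart.

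Spo11, which encodes the enzyme that cuts the DNA, was higher at E13.5 than before in both sexes. Its level was 4.97 and 4.48 RPM in the E10.5 pair, 3.37 and 5.69 RPM in the E11.5 pair, 29.1 and 28.9 RPM in E13.5 males, and 19.2 and 17.3 RPM in E13.5 females. The E10.5 and E11.5 values overlapped, the female values lay above both, and the male values lay above the female ones. Mei4 was at 8.13 and 7.04 RPM in the E10.5 pair, 10.1 and 2.56 RPM in the E11.5 pair, 8.35 and 8.80 RPM in E13.5 males, and 10.9 and 19.5 RPM in E13.5 females. Only the female group of Mei4 lay above all the others, and its lower library was close to the higher E11.5 library.

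Prdm9 and Mei1 were near the floor in most libraries. Prdm9 was at 0.451 and 1.28 RPM in the E10.5 pair, 0.673 and 0.285 RPM in the E11.5 pair, 1.00 and 1.06 RPM in E13.5 males, and 2.93 and 3.02 RPM in E13.5 females. The female libraries, with 11 and 14 reads, were the only ones of the wild-type set with more than 4 Prdm9 reads. Mei1 was listed at 0 in both E11.5 libraries, whose floors were 2.02 and 0.854 RPM, at 0.334 and 0 RPM in E13.5 males, and at 3.76 and 3.29 RPM in E13.5 females. At E10.5 it was at 0 and 2.56 RPM, so the early libraries differed from each other, while both female libraries lay above every other library. Against the floor of 2.02 RPM in E11.5 replicate 1, the female mean of Mei1 was at least 1.75-fold higher than at E11.5.

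The strand exchange genes followed a graded order, with females above males above the earlier stages. Dmc1 was at 7.67 and 5.44 RPM in the E10.5 pair, 6.73 and 9.68 RPM in the E11.5 pair, 16.4 and 15.8 RPM in E13.5 males, and 38.7 and 35.9 RPM in E13.5 females. Tex15 was at 25.3 and 34.3 RPM in the E10.5 pair, 48.5 and 31.3 RPM in the E11.5 pair, 55.1 and 79.6 RPM in E13.5 males, and 132 and 120.3 RPM in E13.5 females. For both genes the E10.5 and E11.5 values overlapped and the remaining steps of the order did not, although the lower male Tex15 library stood close to the higher E11.5 library.

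The crossover genes Hfm1, a helicase gene, and Msh4, which encodes a protein that holds joined DNA strands, were low at the early stages. Hfm1 was at 4.51 and 5.76 RPM in the E10.5 pair, 2.69 and 5.69 RPM in the E11.5 pair, 23.4 and 13.4 RPM in E13.5 males, and 40.3 and 44.4 RPM in E13.5 females. Msh4 was at 0.903 and 0 RPM in the E10.5 pair, 0 and 0.285 RPM in the E11.5 pair, 2.67 and 3.17 RPM in E13.5 males, and 7.94 and 7.95 RPM in E13.5 females. Both genes overlapped between E10.5 and E11.5, and their E13.5 groups lay apart from the early ones and from each other. At E10.5 and E11.5 Msh4 rested on 0 to 2 reads per library.

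Msh5, whose protein works as a pair with MSH4, was at 3.61 and 0.960 RPM in the E10.5 pair, 2.02 and 0.569 RPM in the E11.5 pair, 4.68 and 2.11 RPM in E13.5 males, and 5.85 and 3.84 RPM in E13.5 females. The female and male values overlapped, and so did those of E10.5 and E11.5, while both E13.5 groups lay above E11.5, the males by a narrow margin. The Msh5 reads numbered 2 to 28 per wild-type library.

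**Figure D1:**
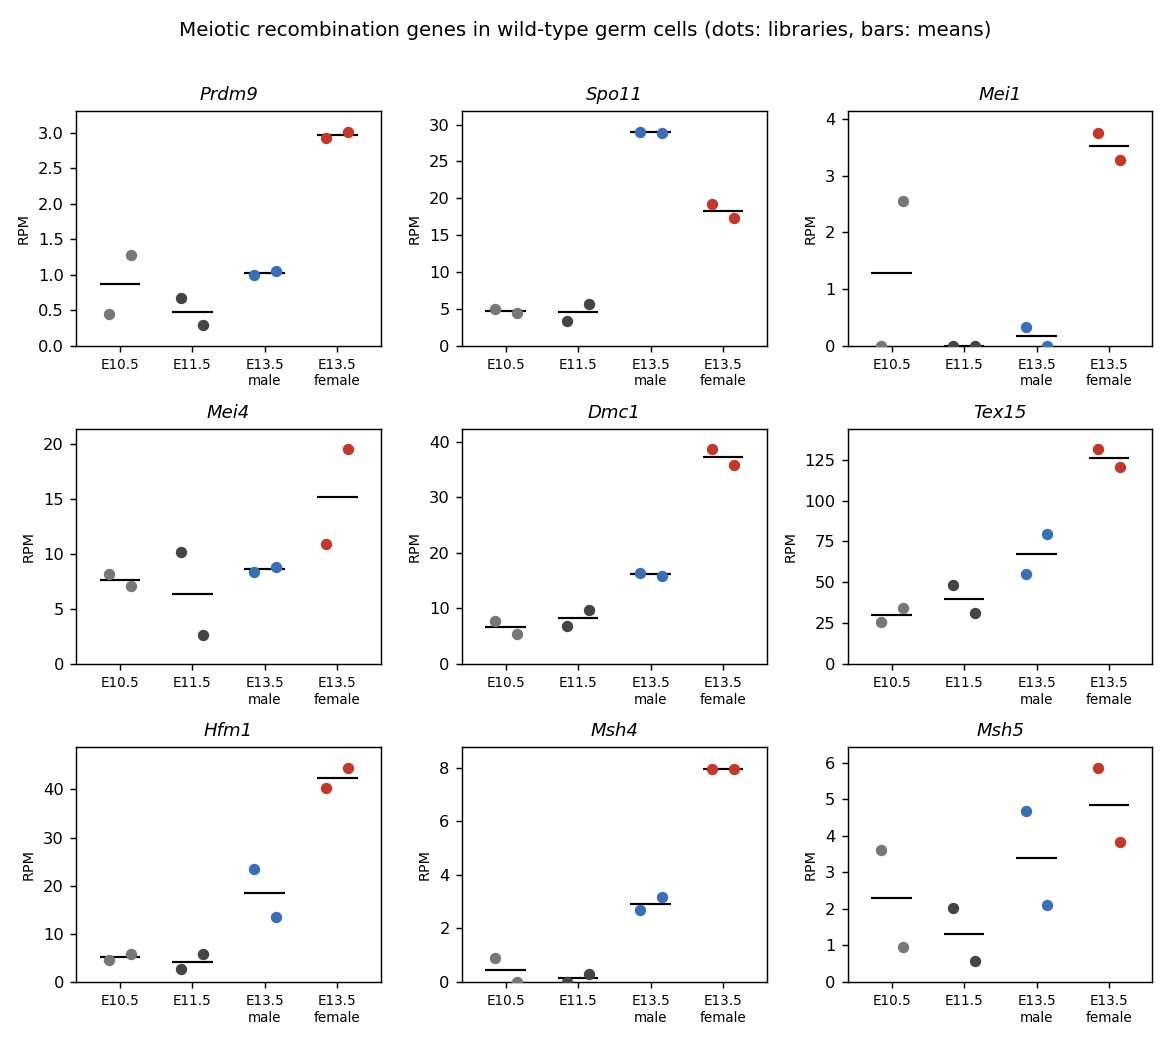
Level of each of the 9 genes in RPM (vertical axis, its own scale for each gene) in the wild-type groups, with each library as a dot and the group mean as a bar. Female libraries at E13.5 are the highest for every gene except Spo11, where the males at 29.1 and 28.9 RPM lie above the females at 19.2 and 17.3 RPM, and Msh5, where the sexes overlap.

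Tests were run on log2(RPM + 1) with limma across all genes with at least 5 RPM in 2 wild-type libraries, with Benjamini-Hochberg adjustment. Of the 9 genes, 6 passed this filter, Spo11, Mei4, Dmc1, Tex15, Hfm1 and Msh4. Msh4 passed only through its female libraries and Spo11 only with its E13.5 libraries. The filter thus favoured a difference in both, and the counts below are descriptions. Prdm9, Mei1 and Msh5 were not tested.

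From E11.5 to E13.5 in females, the 6 tested genes were all called higher, among 10749 genes of which 51.2% were called and 31.2% were called higher. Of the 4 that passed the filter on their E10.5 and E11.5 libraries alone, 4 were called higher. Over all genes these were 3354 higher and 2148 lower calls, against 2731 and 2811 with quantile normalization, under which the 6 genes were still called. Hfm1 changed from 4.19 ± 2.12 RPM (SD, n = 2) to 42.4 ± 2.87 RPM, a log2 change of 3.12 ± 0.35 (SE; limma, adjusted p = 3.12e-08). Msh4 had a log2 change of 2.98 ± 0.53, a value that depends on the pseudocount because the early level was near 0. It passed the filter only through its female libraries, so its test is not given. Dmc1 rose from 8.21 ± 2.08 to 37.3 ± 1.96 RPM, with a log2 change of 2.07 ± 0.31 (limma, adjusted p = 2.71e-06).

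Spo11 and Tex15 had smaller changes, and Mei4 had the smallest of the 6. Spo11 had a log2 change of 1.83 ± 0.33, given without a test because it passed the filter only with its E13.5 libraries. Tex15 had a log2 change of 1.67 ± 0.20 (limma, adjusted p = 1.13e-07). Mei4 had a log2 change of 1.31 ± 0.42 (limma, adjusted p = 0.0113). The Mei4 call ended without E11.5 replicate 2, where the change was 0.49 (limma, adjusted p = 0.341), and without female replicate 2, where it was 0.92 (limma, adjusted p = 0.189). It also ended with no mean-variance trend (limma, adjusted p = 0.0789) and in a fit of only the compared groups (limma, adjusted p = 0.0502). In a fit without the filter all 9 genes were tested and 7 were called, among 18473 genes of which 5170 were called, 3273 of them higher. Mei4 was not called in that fit (limma, adjusted p = 0.0995). There Prdm9 (1.44, limma, adjusted p = 0.0182) and Mei1 (2.18, limma, adjusted p = 0.0160) were called higher and Msh5 (1.403, limma, adjusted p = 0.109) was not.

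From E11.5 to E13.5 in males, 5 of the 6 tested genes were called higher, among 10749 genes of which 38.2% were called and 22.3% were called higher. Of the 4 that passed the filter on their E10.5 and E11.5 libraries alone, 3 were called higher. Spo11 rose from 4.53 ± 1.65 to 29.0 ± 0.127 RPM (SD, n = 2), a log2 change of 2.47 ± 0.33 (SE). Hfm1 rose to 18.4 ± 7.07 RPM, a log2 change of 1.91 ± 0.35 (limma, adjusted p = 7.96e-05). Msh4 rose to 2.92 ± 0.352 RPM, a log2 change of 1.79 ± 0.53. For Spo11 and Msh4 the test is not given, since both passed the filter only with E13.5 libraries.

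The male gains of the strand exchange genes were smaller, and their calls ended in some fits with a library left out. The changes themselves stayed above 0 in those fits, at 0.68 to 1.14 for Dmc1 and 0.44 to 1.06 for Tex15. Dmc1 had a log2 change of 0.91 ± 0.31 (limma, adjusted p = 0.0192), and the call ended without E11.5 replicate 1 (limma, adjusted p = 0.120) or without either male replicate (limma, adjusted p = 0.0916 and 0.0797). Tex15 had a log2 change of 0.75 ± 0.20 (limma, adjusted p = 0.00408), and the call ended without E11.5 replicate 2 (limma, adjusted p = 0.123) or male replicate 2 (limma, adjusted p = 0.162). Mei4, at 8.58 ± 0.321 RPM in males, had a log2 change of 0.61 ± 0.42 and was not called (limma, adjusted p = 0.270). Without E11.5 replicate 1 the Mei4 change was 1.43 (limma, adjusted p = 0.0114), and without E11.5 replicate 2 it was -0.21.

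The direct comparison of the sexes at E13.5 is also the test of whether their changes from E11.5 differ, since both are taken from the same E11.5 libraries. Of the 6 tested genes, 3 were called higher in females, among 10749 genes of which 37.6% were called and 21.2% were called higher in females. All 3 were among the 4 that passed the filter on their E10.5 and E11.5 libraries alone. Tex15 was at 126 ± 8.04 RPM in females and 67.3 ± 17.3 RPM in males (SD, n = 2), a log2 difference of 0.92 ± 0.20 (limma, adjusted p = 0.000639). Dmc1 was at 37.3 ± 1.96 RPM in females and 16.1 ± 0.366 RPM in males, a log2 difference of 1.16 ± 0.31 (limma, adjusted p = 0.00346). Hfm1 was at 42.4 ± 2.87 RPM in females and 18.4 ± 7.07 RPM in males, a log2 difference of 1.21 ± 0.35 (limma, adjusted p = 0.00719).

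Each of these 3 sex differences lost its call when a library was left out. The Tex15 call ended without male replicate 1 (limma, adjusted p = 0.0589), the Dmc1 call without female replicate 1 (limma, adjusted p = 0.0528), and the Hfm1 call without male replicate 2 (limma, adjusted p = 0.163) or female replicate 2 (limma, adjusted p = 0.0811).

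Spo11, the break-making enzyme, had the opposite sign, with a log2 difference of -0.64 ± 0.33 between females and males that was not called (limma, adjusted p = 0.134). The sexes did not overlap for Spo11, and a fit of the male and female libraries alone called the difference (limma, adjusted p = 0.0247). Msh4 (1.19 ± 0.53) and Mei4 (0.70 ± 0.42, limma, adjusted p = 0.199) were higher in both female libraries than in both male ones but were not called. Msh4 was called in some other fits. Its p-values are not given, because it passed the filter only through its female libraries. The 8 gonadal somatic markers summed to 13.7 to 14.4 RPM in males, with Lhx9 and Col1a2 at 0, and to 3.29 to 4.18 RPM in females, with Nr5a1 and Tcf21 at 0. The 4 pre-granulosa markers summed to 1.34 to 1.76 RPM in males, with Foxl2, Irx3 and Bmp2 at 0, and to 8.15 to 12.1 RPM in females. The 5 erythroid markers summed to 2.34 to 3.52 RPM in males and 22.6 to 32.6 RPM in females. At E11.5 the erythroid sum was 5.98 to 14.8 RPM and the pre-granulosa sum 3.42 to 4.71 RPM. The part of these markers in the differences between the sexes and from E11.5 was not tested.

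From E10.5 to E11.5, 0 of the 6 tested genes were called, among 10749 genes of which 4.28% were called. Over all genes there were 248 higher and 212 lower calls, against 212 and 280 with median-ratio scaling. The total of 460 was 105 without E10.5 replicate 1, 167 without E10.5 replicate 2, 79 in a fit of only the compared groups and 27 with no mean-variance trend. No gene of the 6 reached an unadjusted p under 0.05, and limma voom on rounded reads also called 0 of the 6. The largest change relative to its error was that of Tex15, with a log2 change of 0.39 ± 0.20 (limma, adjusted p = 0.286). Dmc1 had 0.28 ± 0.31, Spo11 -0.08 ± 0.33, Msh4 -0.28 ± 0.53, Hfm1 -0.30 ± 0.35 and Mei4 -0.45 ± 0.42. The 5 erythroid markers summed to 213 to 224 RPM at E10.5 and to 5.98 to 14.8 RPM at E11.5. The 8 gonadal somatic markers summed to 43.8 to 46.1 RPM at E10.5 and to 2.28 to 4.71 RPM at E11.5, where Nr5a1, Lhx9 and Col1a2 were at 0. Their part in these values was not tested.

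**Figure D2:**
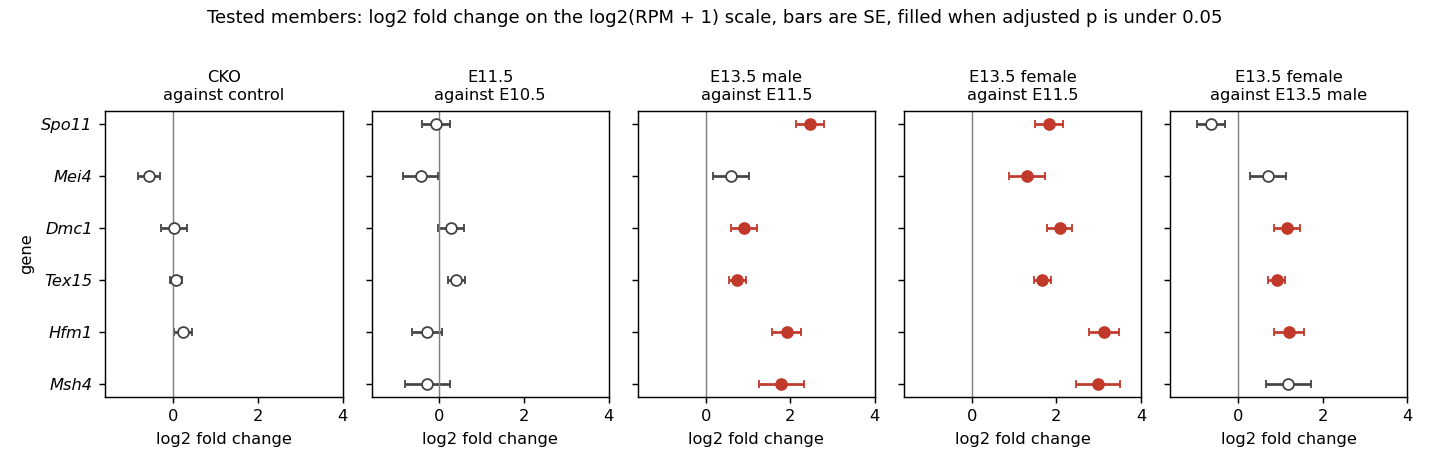
Log2 fold change (horizontal axis, log2(RPM + 1) scale) of each tested gene in the 5 comparisons, with bars of 1 SE and filled points where the adjusted p was under 0.05. In females against E11.5 the 6 points run from 1.31 (Mei4) to 3.12 (Hfm1), and between the sexes Spo11, at -0.64, is the only point left of 0.

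The floxed comparison asks whether the recombination genes respond at E11.5 to the transgene that deletes Prdm1. Prdm1 itself was at 66.2, 50.7, 63.0 and 73.0 RPM in the control libraries and 79.9, 84.1, 76.6 and 89.4 RPM in the CKO libraries, so every CKO library lay above every control. A 3′ read can lie outside the deleted part, so this checks the deletion poorly, and the libraries are called CKO-labelled.

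Spo11 was the 1 gene of the 9 whose floxed groups lay apart. It was at 5.89, 6.96, 4.82 and 6.59 RPM in control libraries, from 20 to 35 reads, and at 0.232, 2.19, 0.861 and 2.50 RPM in CKO-labelled libraries, from 1 to 11 reads. The groups did not overlap, and the control mean of 6.06 ± 0.945 RPM (SD, n = 4) was 4.20 times the CKO-labelled mean of 1.45 ± 1.08 RPM. An exact two-sided permutation test over the 8 libraries gave p = 0.0286, the smallest that 4 against 4 allows. Spo11 was 1 of 9 genes examined in this way, and over all 18896 genes with a read in the floxed set 5.68% had groups that did not overlap. The 4 pre-granulosa markers, of the supporting cells of the ovary, also lay apart. Their sums were 0.657 to 4.18 RPM in control, with Foxl2 at 0, and 4.77 to 10.4 RPM in CKO-labelled libraries. The sums of gonadal somatic, Sertoli (supporting cells of the testis), endothelial, erythroid and macrophage markers all overlapped between the groups. The 7 germ cell markers summed to 3327 to 3736 RPM in control and 2964 to 3439 RPM in CKO-labelled libraries, and 1 of them, Kit, was called lower (-0.42 ± 0.10, limma, adjusted p = 0.0360). The part of these markers, or of the sort, in the Spo11 difference was not tested.

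The other 8 genes had exact permutation p-values from 0.114 to 0.971. Spo11 was below the filter of 5 RPM in 4 floxed libraries. In a fit with no filter its log2 change was -1.64 ± 0.37, and it was not called (limma, adjusted p = 0.0968). With any 1 library left out the control mean was 3.28 to 5.55 times the CKO-labelled mean. In wild-type cells at E11.5, Spo11 was at 3.37 and 5.69 RPM, which overlapped the controls and not the CKO-labelled libraries, though that table was normalized separately and its mice were of another background.

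Of the 4 genes that passed the filter in the floxed libraries, 0 were called, among 9384 genes of which 2.43% were called (228, or 137 without CKO-labelled replicate 2). Limma voom on rounded reads also called 0 of the 4, and Mei4 alone had an unadjusted p under 0.05. Mei4 was at 11.48, 8.95, 8.98 and 9.89 RPM in control and 10.5, 6.56, 5.45 and 3.93 RPM in CKO-labelled libraries, where 3 of 4 lay below every control. Its log2 change was -0.57 ± 0.26 (limma, adjusted p = 0.396).

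Dmc1, Tex15 and Hfm1 overlapped between the floxed groups. Dmc1 was at 7.06, 3.18, 7.22 and 4.24 RPM in control and 5.81, 5.56, 2.87 and 7.86 RPM in CKO-labelled libraries, a log2 change of 0.02 ± 0.32 (limma, adjusted p = 0.994). Tex15 was at 37.4, 55.7, 42.7 and 45.9 RPM in control and 57.8, 47.3, 42.8 and 42.2 RPM in CKO-labelled libraries, a log2 change of 0.07 ± 0.15 (limma, adjusted p = 0.924). Both of these changes took the other sign in some fits with a library left out. Hfm1 was at 7.95, 8.16, 9.85 and 7.07 RPM in control and 7.43, 8.74, 12.1 and 11.4 RPM in CKO-labelled libraries, a log2 change of 0.22 ± 0.22 (limma, adjusted p = 0.772).

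The other genes were too low for the filter. Msh4 was at 2.65, 1.39, 0.876 and 0.471 RPM in control and 0.697, 0.199, 0.861 and 0.715 RPM in CKO-labelled libraries. Msh5 was at 2.06, 1.19, 0.219 and 2.12 RPM in control and 1.86, 1.99, 1.72 and 0.715 RPM in CKO-labelled libraries. Both genes overlapped between the groups, and no difference was detectable at this depth. Prdm9 ranged from 0 to 1.31 RPM in control and from 0.397 to 1.16 RPM in CKO-labelled libraries, and Mei1 was at 0 in 3 of 4 control and 2 of 4 CKO-labelled libraries.

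The libraries least like the rest of their group were control 1 and CKO-labelled 4, with a mean correlation across genes of 0.965 and 0.964. The highest sum of gonadal somatic markers among the floxed libraries was 172 RPM, in the CKO-labelled group. Without control 1 and CKO-labelled 4, a fit added after the data were seen, the ratio of the Spo11 means was 5.60 and 0 of the 4 tested genes were called.

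**Figure D3:**
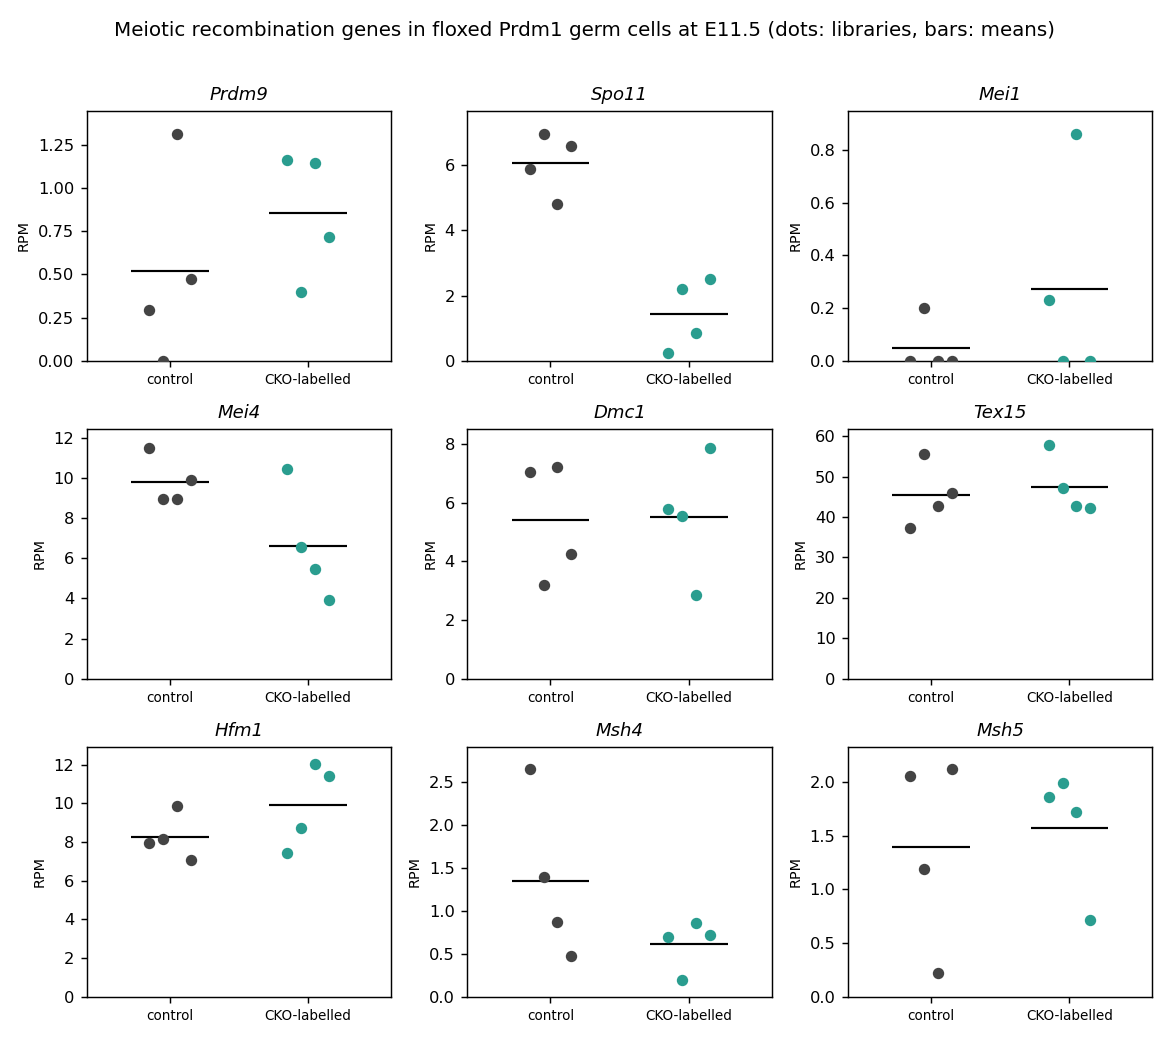
Level of each of the 9 genes in RPM (vertical axis, its own scale for each gene) in control and CKO-labelled libraries at E11.5, with each library as a dot and the group mean as a bar. Spo11 is the only one of the 9 genes whose groups do not overlap, with controls from 4.82 to 6.96 RPM and CKO-labelled libraries from 0.232 to 2.50 RPM.

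Other genes of the pathway were taken from 6 recombination lists, of which 65 of 66 genes were found, and from a list of meiotic entry and chromosome axis genes, of which 15 of 16 were found. In females against E11.5, 23 of the 53 tested recombination genes were called higher and 3 lower, with a median log2 change of 0.51 beside 0.13 over all genes. In males against E11.5, 14 of the 53 were called higher and 2 lower, with a median of 0.25 beside 0.11. Between females and males, 13 were called higher in females and 3 lower, with a median of 0.12 beside 0.05. These counts of higher calls stand beside 31.2%, 22.3% and 21.2% over all genes. The same shares stand beside the counts of each list below. Of the 53, 49 passed the filter on their E10.5 and E11.5 libraries alone, and among these 21, 13 and 12 were called higher in the 3 comparisons.

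The genes that work beside SPO11 in break formation included 3 tested members, and all 3 were called higher in females than at E11.5. Hells, a chromatin remodeller that acts with PRDM9, rose from 117 ± 12.4 to 404 ± 21.9 RPM (SD, n = 2), a log2 change of 1.78 ± 0.11 (limma, adjusted p = 6.52e-13). Zcwpw1, a reader of the marks that PRDM9 sets, rose by 1.62 ± 0.41 on the log2 scale (limma, adjusted p = 0.00182). Rec114, listed under the older name 2410076I21Rik and a partner of MEI4, rose by 0.96 ± 0.22 (limma, adjusted p = 0.000557).

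Among the 9 tested genes of end resection and single-strand binding, 5 were called higher in females against E11.5 and 3 in males. None were called lower. Over all genes 31.2% and 22.3% were called higher. Of the 8 that passed the filter on their E10.5 and E11.5 libraries alone, 4 and 3 were called higher. Meiob, listed as 4930528F23Rik and encoding a meiosis-specific single-strand binding protein, went from 0.427 ± 0.604 RPM at E11.5 to 9.79 ± 1.83 RPM in females. In males it was at 0.677 ± 0.459 RPM. It passed the filter only through its female libraries, so its test is not given. Rbbp8, which encodes the resection factor CtIP, rose by 1.17 ± 0.18 in females (limma, adjusted p = 4.12e-06) and by 0.72 ± 0.18 in males (limma, adjusted p = 0.00210).

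Of the 16 tested strand exchange partners, 8 were called higher and 1 lower in females, and 4 higher in males, against E11.5. Hsf2bp, which encodes a partner of BRCA2 in meiosis, rose by 1.44 ± 0.17 in females (limma, adjusted p = 9.76e-08) and by 1.09 ± 0.17 in males (limma, adjusted p = 1.14e-05). Mnd1, whose protein stimulates DMC1, was at 76.5 ± 3.84 RPM in males, 54.8 ± 2.04 RPM in females and 23.3 ± 7.12 RPM at E11.5. Its log2 change in males was 1.71 ± 0.22 (limma, adjusted p = 4.20e-07). Brca2 itself was higher in females than males by 0.72 ± 0.16 (limma, adjusted p = 0.000942).

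The crossover designation list held 7 genes, of which 3 passed the filter in the wild-type set and 0 in the floxed set. Tex11, which acts with the synaptonemal complex in crossover formation, was at 21.8 ± 5.97 RPM in males, 12.4 ± 4.89 RPM in females and 2.34 ± 0.496 RPM at E11.5. It passed the filter only with its E13.5 libraries, so its values are given without a test against E11.5, and its difference between the sexes was not called. Ccnb1ip1, which encodes the crossover factor HEI10, rose by 1.88 ± 0.45 in females (limma, adjusted p = 0.000976).

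Of the 12 tested genes of mismatch repair and resolution, which also serve dividing cells, 0 were called higher and 1 lower in females against E11.5 by limma. The nuclease gene Mus81 was lower in females than at E11.5 (-1.07 ± 0.30, limma, adjusted p = 0.00370).

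Break signalling genes moved both ways, with 5 of 10 called higher and 1 lower in females against E11.5. The kinase genes Atr (1.65 ± 0.16, limma, adjusted p = 1.68e-09) and Atm (1.37 ± 0.20, limma, adjusted p = 1.77e-06) rose, and the checkpoint clamp gene Rad9 fell by 1.16 (SE 0.12, limma, adjusted p = 1.43e-08).

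The meiotic entry and axis genes were called higher in females against E11.5 for 15 of 15 tested, beside 31.2% of all genes. Their median log2 change was 2.45 beside 0.13 over all genes. Of the 15, 5 passed the filter only with E13.5 libraries, 2 of them (Stra8 and Gm1564) only through females, so their calls were set in part by the filter. Of the other 10, 10 were called higher in females and 7 in males against E11.5, and 9 were called higher in females than in males. Stra8, needed to start meiosis, was listed at 0 in both E11.5 libraries and was at 412 and 403 RPM in females and 0.668 and 1.76 RPM in males. Rec8, a meiotic cohesin gene, was at 308 ± 13.6 RPM in females and 14.8 ± 4.92 RPM in males (4.32 ± 0.24, limma, adjusted p = 3.47e-14). Sycp3, of the chromosome axis, rose in males from 9.18 ± 1.31 to 38.2 ± 3.18 RPM (1.95 ± 0.26, limma, adjusted p = 6.71e-07).

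Earlier, from E10.5 to E11.5, 2 of the 53 recombination genes and 4 of the 15 entry and axis genes were called higher and none lower, beside 2.31% of all genes called higher. Rec114 rose from 15.2 ± 4.29 to 34.6 ± 2.56 RPM (1.16 ± 0.22, limma, adjusted p = 0.00168), and without E10.5 replicate 1 its call ended (limma, adjusted p = 0.0823). Stag3, another meiotic cohesin gene, rose from 52.6 ± 2.85 to 88.2 ± 5.70 RPM (0.73 ± 0.13, limma, adjusted p = 0.000880). In the floxed libraries, 0 of 49 tested recombination genes and 0 of 11 tested entry and axis genes were called by limma, beside 2.43% of all genes.

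**Figure D4:**
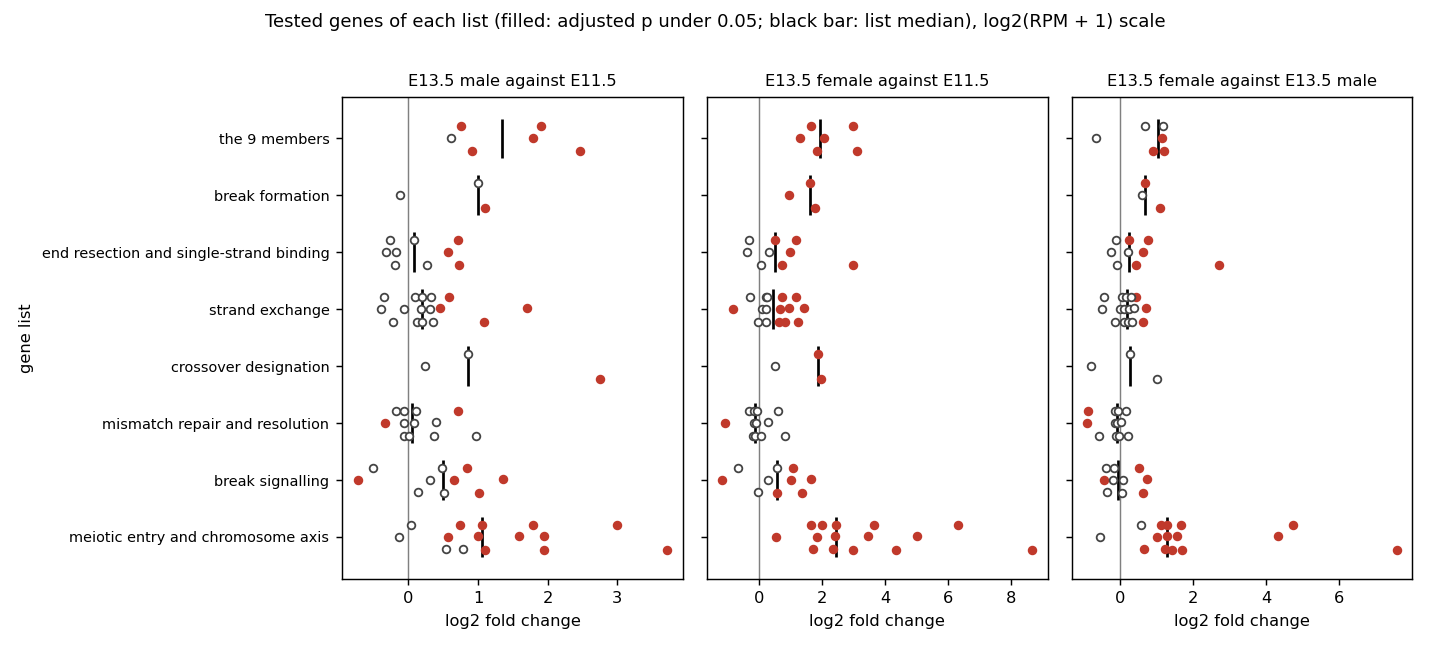
Log2 fold change (horizontal axis, log2(RPM + 1) scale) of each tested gene of each list, filled where the adjusted p was under 0.05, with the list median as a black bar. The entry and axis genes reach furthest right in females, with a median of 2.45 against E11.5, and the mismatch repair and resolution genes lie around 0.

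By Pearson correlation of log2(RPM + 1) over the 8 wild-type libraries, among 10749 genes, the patterns most like Dmc1 were those of Phka2 (0.993), Ptpdc1 (0.993) and Fchsd2 (0.989). Those most like Tex15 were Tcea2 (0.993), Slc25a42 (0.989) and Epb4.1l4b (0.988). For Hfm1 they were Xlr4b (0.990), Fbxo11 (0.987) and Ubr3 (0.987). For Msh4 they were Nek9 (0.995), Ash1l (0.992) and Eci1 (0.989).

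These neighbours differed from gene to gene, and the break-forming genes likewise shared none with those above or with each other. Spo11, with its higher male level, was most like Tex19.2 (0.994), Abcd3 (0.993) and Bnc1 (0.992), and Mei4 was most like Rnf138 (0.991), Fam149b (0.975) and Tnpo1 (0.975). With 8 libraries in 4 groups, such values mostly describe the order of the groups, and they are given without a p.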

How the data were processed

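Transcript ends of 16 libraries were sequenced. The authors deposited RPM values for 26219 genes in a floxed and a wild-type table. The submitters' processing notes name cutadapt 1.3, TopHat 1.4.1, Cufflinks 2.2.0 and the build mm10. In each library 99.67% to 99.80% of values were whole multiples of a step within 0.05 reads, which gave the depth. Between 32 and 49 genes per library were fractional, so values were tested as RPM. Spike-in rows (92) were left out.

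A gene entered the tests when 4 floxed or 2 wild-type libraries reached 5 RPM. Values on the log2(RPM + 1) scale were fitted in limma 3.58.1 (R 4.3.3) by lmFit and eBayes with a trend. Calls required p under 0.05 after Benjamini-Hochberg adjustment over all genes tested. The code was tested on simulated data. All 8 wild-type libraries entered 1 fit, and its comparisons share libraries. Exact permutation tests compared the floxed groups. Symbols that differed were matched by Entrez ID. Promoters came from RefSeq and overlaps from GENCODE.

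The genes, the lists and the tests were chosen with earlier results of these data known. Named list genes were up to 3 called genes of a list per comparison with the smallest p, and like genes the 3 of highest correlation, leaving out unnamed predicted genes. Some of these are not reported here. Other settings were a pseudocount of 0.1 or 10, no filter or 20 RPM, median-ratio or quantile scaling, other variance models, a block on replicate numbers, fits of only the compared groups, fits without each replicate and, added after the data were seen, voom on rounded reads and a fit without control 1 and CKO-labelled 4. Same-numbered libraries deviated together with correlations of 0.0198 to 0.252 in the floxed table, not all over 0.1, so the numbers were not used as pairs.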

Additional observations from a re-analysis of the deposited data

Results flagged for a closer look

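Mei1 in the control group was flagged because 1 library lay far from the others. It was at 0.199 RPM, from 1 read, and the other 3 control libraries were at 0. This was 1 flag among 18 groups of 4 libraries examined, and chance alone flags some groups at this threshold. With the other 3 libraries at 0, any read at all gives the flag, so it does not show an outlying library.

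The change from E11.5 to E13.5 differed between the sexes for 3 of the 6 tested genes. This is the limma comparison of the sexes given above, in which 37.6% of all genes were called and 21.2% were called higher in females. Dmc1 rose more in females by 1.16 on the log2 scale (adjusted p = 0.00346), Hfm1 by 1.21 (adjusted p = 0.00719) and Tex15 by 0.92 (adjusted p = 0.000639). In each case both female libraries lay above both male libraries, and the call ended in some fit with a library left out.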

How the results depend on the processing

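In CKO-labelled against control and E11.5 against E10.5, 0 of the tested genes of the set were called under every alternative run. The counts of 6 in females and 5 in males against E11.5 include Spo11 and Msh4, which passed the filter only with E13.5 libraries. In females against E11.5 with a replicate left out, the log2 change was 1.84 to 2.31 for Dmc1 and 2.69 to 3.55 for Hfm1. It was 1.36 to 1.97 for Tex15 and 0.49 to 2.13 for Mei4. In males against E11.5 it was 0.68 to 1.14 for Dmc1, 1.48 to 2.34 for Hfm1 and 0.44 to 1.06 for Tex15. The calls that ended with a replicate left out are given above. In females against males the count of 3 became 5 with a pseudocount of 10 and in the fit of only the compared groups. It was also 5 with voom on rounded reads. Counts here take calls in either direction. Each 5 added Msh4, and also Spo11, which was higher in males. With a replicate left out the log2 difference was 1.11 to 1.21 for Dmc1, 0.83 to 1.59 for Hfm1 and 0.655 to 1.18 for Tex15. Of 521 alternatives to the 28 fold changes, those of Spo11 and Msh4 among them, 475 kept their direction and side of the threshold.

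The changes that reversed were not called in the main analysis. Dmc1 in the floxed comparison was at -0.043 with quantile normalization, -0.066 with array weights, and -0.020 without control 1 and CKO-labelled 4. Left-out replicates gave it -0.17 to 0.25 and Tex15 there -0.030 to 0.17. With replicates left out in E11.5 against E10.5, Msh4 ranged from -0.75 to 0.18, Spo11 from -0.39 to 0.23 (0.063 with voom), Hfm1 from -0.73 to 0.13 and Mei4 from -1.27 to 0.37, and in males against E11.5 Mei4 ranged from -0.21 to 1.43. The cause was not tested.

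The replicate block left the counts at 0, 0, 6, 5 and 3 and changed no call of the set. Over all genes it raised the calls in CKO-labelled against control from 228 to 314. Median-ratio and quantile scaling moved the median of all genes in females against E11.5 from 0.13 to 0.02 and -0.02. The split of higher and lower calls went from 3354 and 2148 to 2819 and 2616, and 2731 and 2811. With both, 6 of the set were still called, among them Spo11 and Msh4, which passed the filter only with E13.5 libraries. Depth limits Prdm9, Mei1, Msh4 and Msh5, which rest on few reads. A planned count test was not run, because the values were not all whole reads.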
